A study of Mus musculus with 12 samples.

Results

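The 9 phospholipase C genes Plce1, Plcb1, Plcb2, Plcb3, Plcb4, Plcd1, Plcd3, Plcd4 and Plcg1 and the lipid phosphatase gene Inpp4a were followed in mouse thoracic aorta. They are 10 of 19687 genes tested. They were listed by symbol, with earlier results of this comparison known. The row read for each gene, among rows annotated with its symbol alone, was chosen by its mean log2 intensity over the 12 arrays, the highest being kept. That choice mattered only for Plcd3, which had 2 rows with means of 6.86 and 5.99. All 10 were found by Entrez ID in a RefSeq gene table under the same symbol.

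In 7 mice a transgene encoded human PPARγ with the dominant-negative P467L mutation, and the SMMHC promoter, that of smooth muscle myosin heavy chain, directed it to the vascular muscle layer. PPARγ is a nuclear receptor that fatty acids and glitazone drugs activate. The comparison group was 5 nontransgenic littermates. The design text calls the transgenic mice male and leaves the littermates' sex open. The labels place all 12 on C57BL/6 and list no treatment and no age, and no aortas were pooled. The comparison asks how interference with PPARγ signalling in the muscle of the vessel wall alters aortic gene expression.

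Phospholipase C enzymes cut the membrane lipid PIP2 into diacylglycerol, which stays in the membrane and activates protein kinase C, and the soluble messenger IP3, which opens calcium channels of the sarcoplasmic reticulum. In vascular smooth muscle this reaction links receptors for angiotensin II, endothelin and noradrenaline to contraction. The beta enzymes are switched on by heterotrimeric G proteins, the gamma enzymes by receptor tyrosine kinases, the epsilon enzyme by Ras family GTPases and by G protein subunits, and the delta enzymes by calcium. Inpp4a encodes an inositol polyphosphate phosphatase that removes a phosphate from a lipid product of PI3-kinase and so acts on a neighbouring branch of phosphoinositide metabolism.

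Values are log2 intensities. The 12 arrays had medians of 4.74 to 4.79 and upper quartiles of 6.10 to 6.38. A background level of 5.18 was set at the 95th percentile of the means of 919 receptor genes of the olfactory and vomeronasal families, taken as not expressed in aorta. The smooth muscle label of the tissue was borne out by its markers, of which 12 of 12 were above background, with Myh11, smooth muscle myosin heavy chain, at 11.80 ± 0.11 in P467L and 11.86 ± 0.09 in nontransgenic aorta. The row for Pparg itself was at 6.82 ± 0.24 in P467L and 6.81 ± 0.19 in nontransgenic aorta, and no source used here says whether mouse probes also read human transcripts, so it does not check the labels. In whole aorta, fewer cells of a type and less RNA per cell cannot be told apart. The markers of other cell types follow the pathway genes. P467L replicates 1 and 2 and nontransgenic replicate 2 were the 3 arrays least correlated with the rest.

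Plce1 fell and Inpp4a rose in P467L aorta, but neither passed in a fit that paired the arrays by replicate number. The other 8 genes did not pass the test, a limma p adjusted over all genes of under 0.05. Over all genes, 0.244% passed the same test, 0.117% higher and 0.127% lower (48 genes, 23 higher and 25 lower; 46 higher and 30 lower under quantile normalization). The groups did not overlap in 2 of the 10 genes, Plce1 and Inpp4a, against 0.726% of all genes (0.376% with P467L higher and 0.35% with P467L lower). Because the genes were listed with this contrast in view, nothing is read from these shares. The median difference of the 10 was -0.04 (-0.01 under quantile normalization), against 0.00 over all genes.

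**Figure D1:**
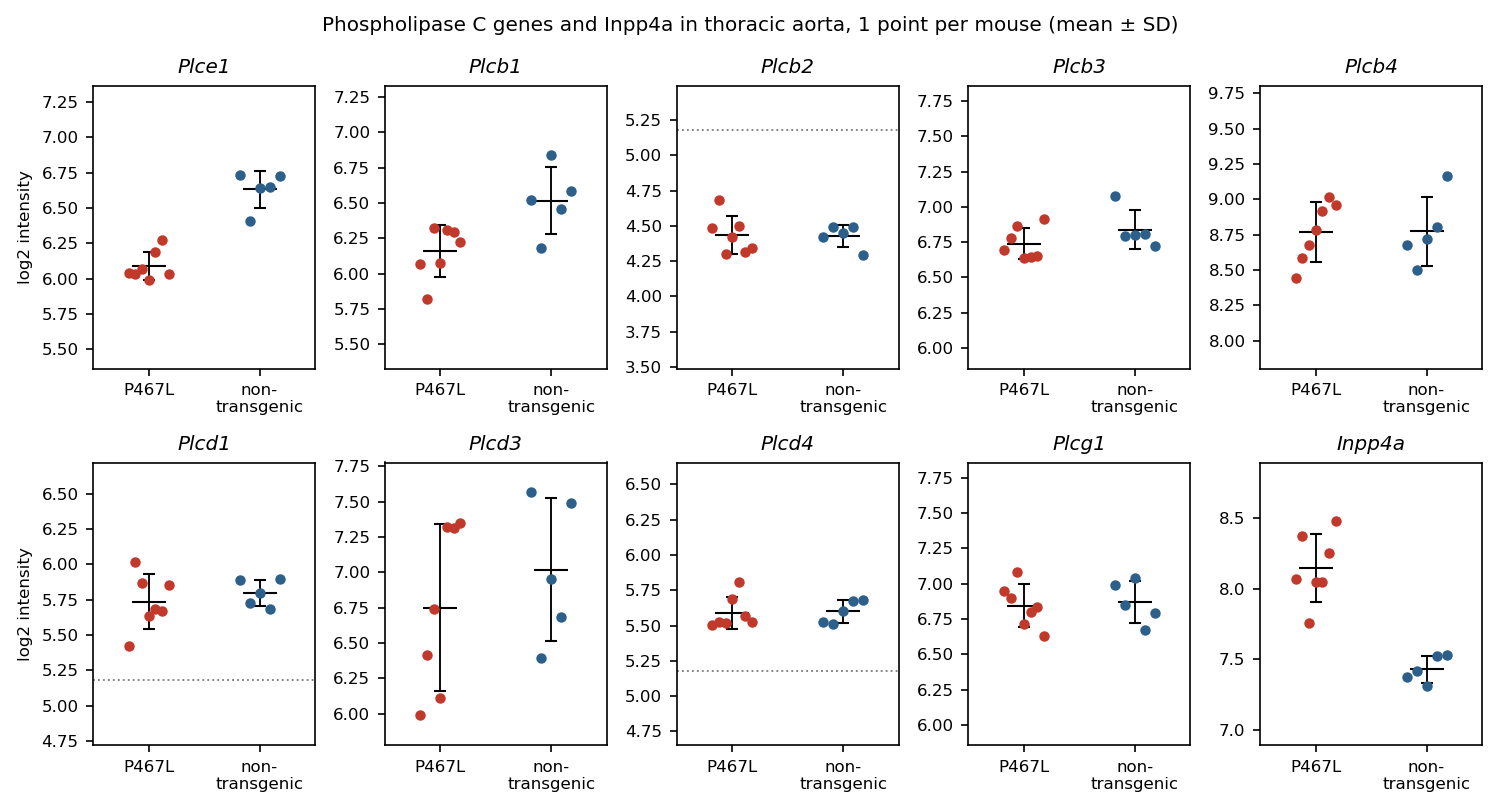
Log2 intensity of each of the 10 genes (vertical axis, 2 log2 units in every panel) in 7 P467L aortas (red) and 5 nontransgenic aortas (blue), with 1 point per mouse, the mean and SD as bars, and the background level of 5.18 as a dotted line where it falls in range. The groups lie apart for Plce1 and Inpp4a and overlap in the other 8 panels.

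Plce1 (Entrez 74055) encodes phospholipase C epsilon, a large isoform that is activated by Ras family GTPases and itself carries a domain that activates Rap. In P467L aortas its log2 intensity had a lowest value of 5.99, a median of 6.04 and a highest value of 6.28. The nontransgenic values were 6.74, 6.40, 6.64, 6.65 and 6.73. Every P467L value lay below every nontransgenic value, and the nearest were P467L replicate 6 and nontransgenic replicate 2. The means were 6.09 ± 0.10 (SD, n = 7) in P467L and 6.63 ± 0.13 (SD, n = 5) in nontransgenic aorta. The gene fell by 0.54 on the log2 scale (SE 0.08, 95% interval -0.71 to -0.37, limma adjusted p = 0.0157), to 0.687 of the nontransgenic level on the linear scale.

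The 5 pairs of equal replicate number all had less Plce1 in the P467L aorta, by log2 differences from -0.69 to -0.37. Since the groups did not overlap, any pairing would give this direction. In the fit with a replicate block the difference was -0.57 ± 0.07 and no longer passed (limma adjusted p = 0.0528). The call was also lost without nontransgenic replicate 1 or 4 (limma adjusted p = 0.0601 and 0.0560), without the 3 least correlated arrays (0.0517) and when all rows were tested (0.259), in a range over all settings from 0.00518 to 0.259. The difference itself stayed between -0.60 and -0.50 on the log2 scale in all 27 settings.

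Inpp4a (Entrez 269180) had the opposite direction. Its log2 intensity in P467L aortas had a lowest value of 7.76, a median of 8.07 and a highest value of 8.48. Nontransgenic aortas had values of 7.37, 7.41, 7.31, 7.52 and 7.53. Every P467L value was above every nontransgenic value, and P467L replicate 3 was the nearest to the nontransgenic range. The means were 8.14 ± 0.24 (SD, n = 7) in P467L and 7.43 ± 0.10 (SD, n = 5) in nontransgenic aorta. The gene rose by 0.72 ± 0.11 on the log2 scale (95% interval 0.47 to 0.96, limma adjusted p = 0.0197), to 1.64 times the nontransgenic level on the linear scale.

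The spread of Inpp4a was wider among P467L than among nontransgenic mice, as the SDs show, and this difference in spread was not tested. All 5 pairs had more Inpp4a in the P467L aorta, by 0.45 to 0.96, a direction that any pairing of groups without overlap would give. With the replicate block the difference was 0.63 ± 0.09 (limma adjusted p = 0.0751). The call was also lost without nontransgenic replicate 1, 3 or 4 (limma adjusted p = 0.0770, 0.0695 and 0.0586), without P467L replicate 6 (0.0530), without the 3 least correlated arrays (0.129), with an unmoderated linear model (0.0710) and among all rows (0.234), in a range from 0.00551 to 0.234. Its log2 difference lay between 0.63 and 0.78 in all 27 settings.

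**Figure D2:**
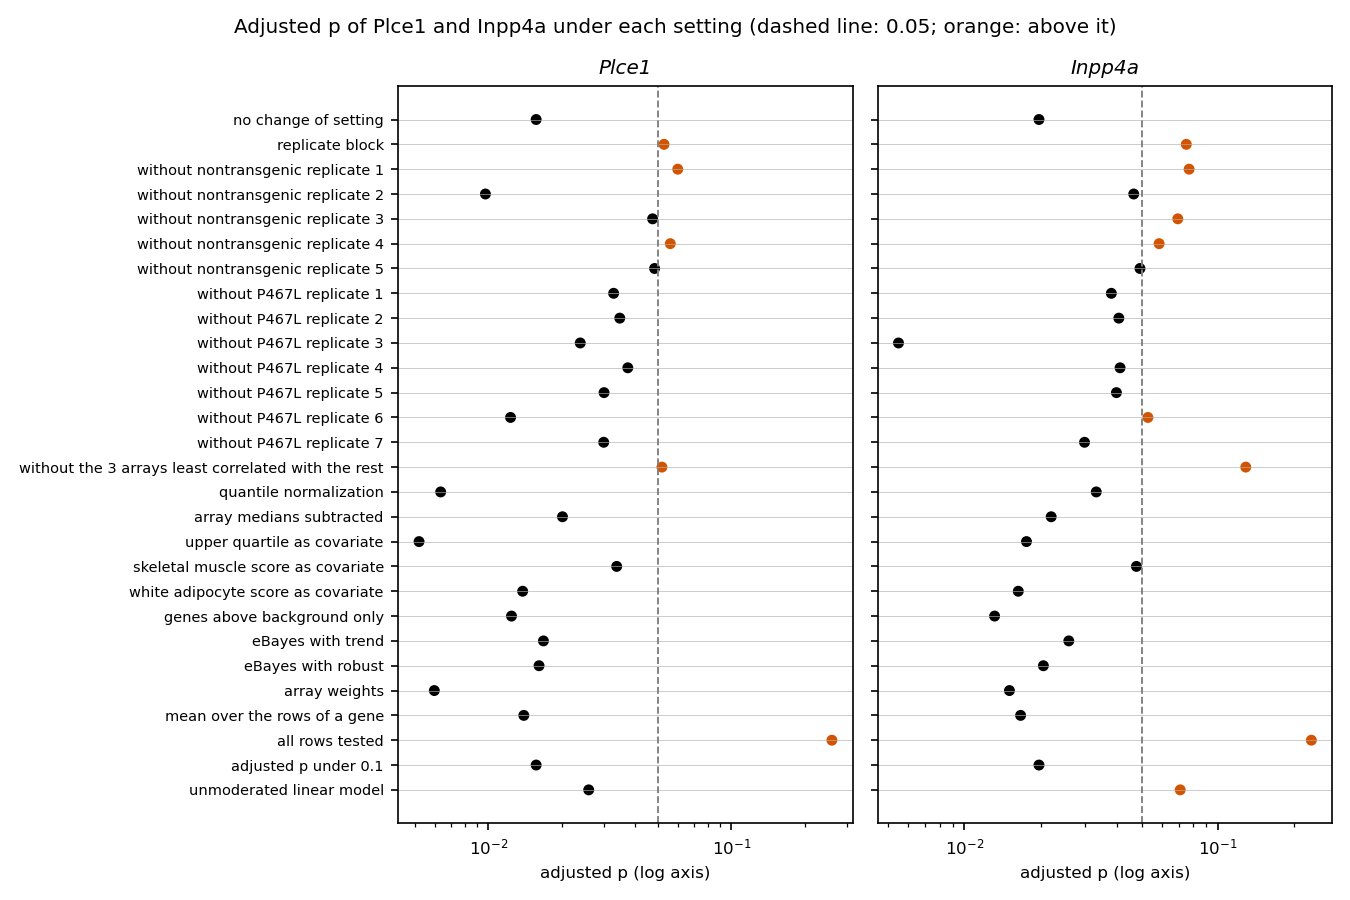
Adjusted p over all genes (horizontal log axis; limma except for the unmoderated model) of Plce1 (left) and Inpp4a (right) with no change of setting in the top line and under each of the 27 alternatives below it. Black points are under 0.05 and orange points above it. Plce1 passed in 22 of 27 alternatives and Inpp4a in 19, 1 of them for each gene being the looser threshold of 0.1.

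The promoters of both genes are shown because they are the 2 that differed between groups in which a nuclear receptor was interfered with. PPARγ binds DNA with its partner RXR at a direct repeat of AGGTCA, a motif shared by many nuclear receptors. RefSeq windows on GRCm38.p6, from 250 bases before to 50 bases after an annotated start, were searched on both strands for AGGTCA and for the direct repeat AGGTCANAGGTCA, whose every match also holds AGGTCA. The arrays' notes name mm9, so these positions belong to the sequence table and not to the probes. In the sequences below, capitals mark AGGTCA or its reverse complement.
Plce1, chr19:38523947-38524246, plus strand: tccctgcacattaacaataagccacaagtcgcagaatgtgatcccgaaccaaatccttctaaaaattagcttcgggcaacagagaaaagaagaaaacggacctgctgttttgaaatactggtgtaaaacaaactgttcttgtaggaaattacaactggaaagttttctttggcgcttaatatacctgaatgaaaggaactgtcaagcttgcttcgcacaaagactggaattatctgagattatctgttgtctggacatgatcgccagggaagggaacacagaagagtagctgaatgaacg
Inpp4a, upstream start, chr1:37299588-37299887, plus strand: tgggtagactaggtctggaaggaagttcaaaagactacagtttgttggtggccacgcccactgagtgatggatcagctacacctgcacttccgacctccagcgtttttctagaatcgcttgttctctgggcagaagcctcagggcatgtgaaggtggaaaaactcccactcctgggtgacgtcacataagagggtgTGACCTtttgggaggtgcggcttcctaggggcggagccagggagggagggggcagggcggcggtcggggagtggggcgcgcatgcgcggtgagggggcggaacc
Inpp4a, downstream start, chr1:37368967-37369266, plus strand: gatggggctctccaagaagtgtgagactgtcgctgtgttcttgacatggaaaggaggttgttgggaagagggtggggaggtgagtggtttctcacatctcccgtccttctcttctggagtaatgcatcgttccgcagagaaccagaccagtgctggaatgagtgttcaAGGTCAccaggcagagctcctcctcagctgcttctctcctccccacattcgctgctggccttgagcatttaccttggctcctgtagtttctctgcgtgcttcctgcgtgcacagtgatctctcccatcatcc

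The Plce1 window held no AGGTCA. The Inpp4a windows held it 54 bases before the upstream start, on the opposite strand, and 82 bases before the downstream start, on the same strand. A further listed Inpp4a window overlaps the upstream one and holds the same copy. Over all 32851 windows in the table, 16.3% held AGGTCA and 0.0396% held the direct repeat. Among the 15 windows listed for the 10 genes, 4 held AGGTCA, the 3 of Inpp4a and the 1 of Plcb3, and 0 held the direct repeat. The CArG box, the element bound by serum response factor in smooth muscle genes, was in 1.63% of all windows and in 0 of the 15. A match is a description of letters and not a binding site.

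The beta enzymes carry signals from G protein coupled receptors. Plcb1, an isoform switched on by the Gq alpha subunit, had a lowest value of 5.82, a median of 6.22 and a highest value of 6.32 in P467L aortas. In nontransgenic aortas it was 6.52, 6.19, 6.84, 6.46 and 6.58. The ranges overlapped through nontransgenic replicate 2 alone, which lay under 4 of the 7 P467L values. The difference was -0.36 ± 0.12 (95% interval -0.61 to -0.11) and did not pass over all genes (limma adjusted p = 0.572, unadjusted p = 0.00833). The P467L aorta was lower in all 5 pairs, by log2 differences from -0.52 to -0.27. The limma adjusted p was 0.0913 with the replicate block, in a range from 0.0913 to 0.962, so Plcb1 passed in 0 of 27 settings.

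Plcb3, another isoform driven by Gq, had a lowest value of 6.64, a median of 6.70 and a highest value of 6.91 in P467L aortas. The nontransgenic values were 7.07, 6.80, 6.80, 6.81 and 6.72, so that replicate 1 stood above the other 4. The groups overlapped, and the difference was -0.10 ± 0.08 (95% interval -0.27 to 0.07, limma adjusted p = 0.999). Without nontransgenic replicate 1 it was -0.04.

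Plcb4, an isoform best known from cerebellum and retina, was at 8.44 to 9.02 in P467L aortas with a median of 8.79. Nontransgenic aortas had values of 8.68, 8.50, 8.72, 8.80 and 9.17. The groups covered nearly the same range, and the difference was -0.0036 ± 0.13, with a 95% interval of -0.27 to 0.27 on the log2 scale (limma adjusted p = 0.999). Its sign turned with the scaling, to 0.012 with array medians subtracted. Plcb2, an isoform mainly of blood cells, was under the background level on all 12 arrays, with values from 4.30 to 4.69 in P467L and from 4.29 to 4.49 in nontransgenic aorta. Its difference of 0.01 ± 0.08 (limma adjusted p = 0.999) is one between values under background.

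Of the delta enzymes, which respond to calcium, Plcd3 varied most. Its log2 intensity was 5.99, 6.41, 6.74, 6.11, 7.32, 7.31 and 7.35 in P467L replicates 1 to 7. In nontransgenic replicates 1 to 5 it was 7.57, 6.40, 6.95, 6.68 and 7.49. Both groups held low and high mice, and the within-group SD of 0.56 compares with 0.10 to 0.23 for the other 9 genes. The difference was -0.27 ± 0.29 (95% interval -0.89 to 0.35, limma adjusted p = 0.999), and it was -0.50 with the replicate block (limma adjusted p = 0.516, in a range from 0.516 to 1.00). The further Plcd3 row did not show this spread, with values from 5.81 to 6.17 in P467L and from 5.81 to 6.19 in nontransgenic aorta and a difference of 0.02 ± 0.11. The 2 rows thus disagree on how much Plcd3 varied between mice, and the sources used here do not say which transcripts each reads.

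Plcd1, which docks on PIP2 through its pleckstrin homology domain, had a lowest value of 5.42, a median of 5.68 and a highest value of 6.02 in P467L aortas. In nontransgenic aortas it was 5.89, 5.73, 5.80, 5.68 and 5.89. The P467L values lay on both sides of the nontransgenic range, and the difference was -0.06 ± 0.10 (95% interval -0.27 to 0.15, limma adjusted p = 0.999). Plcd4, known from mouse sperm as an enzyme of the acrosome reaction, lay between 5.50 and 5.81 in P467L aortas with a median of 5.52. The nontransgenic values were 5.53, 5.51, 5.61, 5.68 and 5.68. Its difference of -0.01 ± 0.07 (95% interval -0.17 to 0.15, limma adjusted p = 0.999) turned to 0.0050 with array medians subtracted.

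Plcg1, the isoform that docks on activated growth factor receptors, had a lowest value of 6.63, a median of 6.83 and a highest value of 7.08 in P467L aortas. Nontransgenic aortas had values of 6.99, 6.85, 7.04, 6.67 and 6.80. The groups overlapped throughout. The difference was -0.02 ± 0.09 (95% interval -0.22 to 0.17, limma adjusted p = 0.999), with both signs among the settings. Within the 5 pairs it lay between -0.04 and 0.05. Whether the fall of Plce1 differed from the changes of the other phospholipase C genes was not tested.

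**Figure D3:**
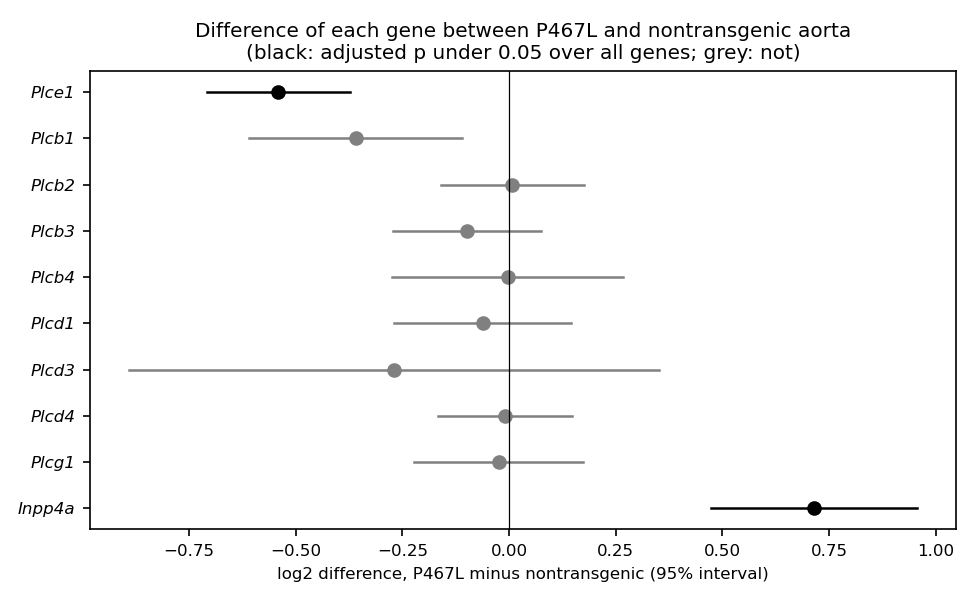
Log2 difference of each of the 10 genes, P467L minus nontransgenic (horizontal axis), with points for the estimate and lines for its 95% interval. Plce1 at -0.54 and Inpp4a at 0.72 passed the test over all genes in the fit without a replicate block (black). The intervals of the other 8 are grey, and among them that of Plcb1 alone does not reach 0.

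**Figure D4:**
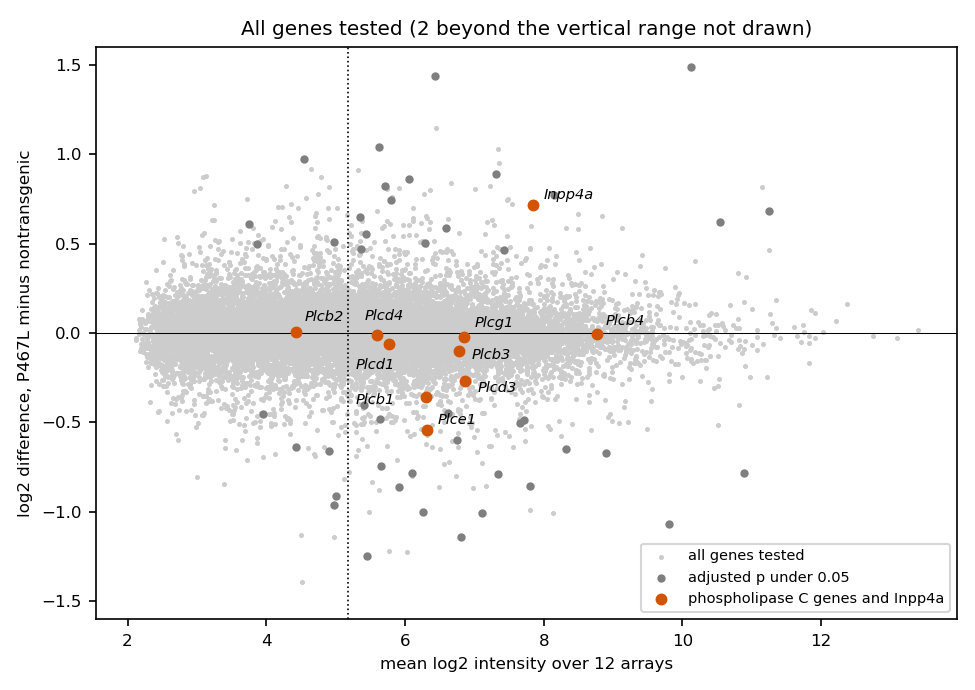
Log2 difference, P467L minus nontransgenic (vertical axis), against the mean log2 intensity over 12 arrays (horizontal axis) for the 19687 genes. Of the 48 genes past the test, those drawn are in dark grey, apart from Plce1 and Inpp4a. The 10 genes described here are in orange. The dotted line is the background level of 5.18, and 2 genes beyond 1.6 log2 units are not drawn. Plcb2 is the 1 gene of the 10 left of the line.

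Genes around the phospholipase C reaction were read from 10 pathway lists, from receptors to kinases. Of 164 genes listed 141 were measured, 108 of them above background. In limma 0 of the 141 rose and 0 fell past the threshold, beside 0.244% of all genes, while 14 had an unadjusted p under 0.05, 12 higher and 2 lower, beside 4.82% of all genes. Their median difference was 0.02, against 0.00 over all genes. The lists were chosen with earlier results of these data known, and all genes were not split by direction at that unadjusted p. Nothing is therefore read from the 12 and 2. By the rule for named genes, the gene with the smallest p of each list follows.

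Upstream of the beta enzymes, Gnaq, the Gq alpha subunit that activates Plcb1 and Plcb3, was at 8.02 ± 0.17 in P467L and 7.72 ± 0.13 in nontransgenic aorta and differed by 0.30 ± 0.09 (limma adjusted p = 0.515). It came from a list of 6 G protein alpha subunits, of which 0 passed. Among 19 measured receptors that couple to Gq, 0 passed. The first was S1pr3, a receptor for sphingosine 1-phosphate, with both means, 4.68 in P467L and 4.20 in nontransgenic aorta, under background (difference 0.48 ± 0.11, limma adjusted p = 0.153). Among 10 receptor tyrosine kinases, the upstream side of Plcg1, 0 passed, and Igf1r, the receptor for insulin-like growth factor, differed by 0.39 ± 0.09 (limma adjusted p = 0.186). Its values did not overlap, at 7.37 to 7.73 in P467L and 6.91 to 7.36 in nontransgenic aorta. The same held for S1pr3 and, of the genes named below, for Plcg2 and Cds1, against 0.726% of all genes. As each was named for the smallest p of its list, nothing is read from this.

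Of 11 measured small GTPases and Rap exchange factors, the partners of Plce1, 0 passed. Rap2b, a Rap GTPase, came first with -0.33 ± 0.14 (limma adjusted p = 0.983). The 8 measured genes of the other phospholipase C and related proteins held 0 past the threshold. There Plcg2, the gamma isoform of blood cells, differed by 0.22 ± 0.07 (limma adjusted p = 0.537), with values of 5.52 to 5.86 in P467L and 5.38 to 5.46 in nontransgenic aorta.

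On the side of lipid supply, 0 of 18 genes of phosphatidylinositol kinases and synthesis passed. Cds1, an enzyme that makes the precursor of phosphatidylinositol, differed by 0.32 ± 0.07 (limma adjusted p = 0.101), with both means, 5.12 in P467L and 4.80 in nontransgenic aorta, under background. Around Inpp4a, 0 of 16 PI3-kinase and Akt genes and 0 of 22 other phosphatase genes passed. Pik3c2b, a class II PI3-kinase, differed by 0.22 ± 0.08 (limma adjusted p = 0.785), and Inpp5a, a phosphatase that ends the IP3 signal, by 0.25 ± 0.09 (limma adjusted p = 0.751). Downstream, 0 of 11 IP3 receptor and inositol phosphate kinase genes and 0 of 20 diacylglycerol kinase and effector genes passed, led by Itpk1, an inositol phosphate kinase (0.13 ± 0.08, limma adjusted p = 0.999), and Prkd2, protein kinase D2 (0.20 ± 0.08, limma adjusted p = 0.778).

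**Figure D5:**
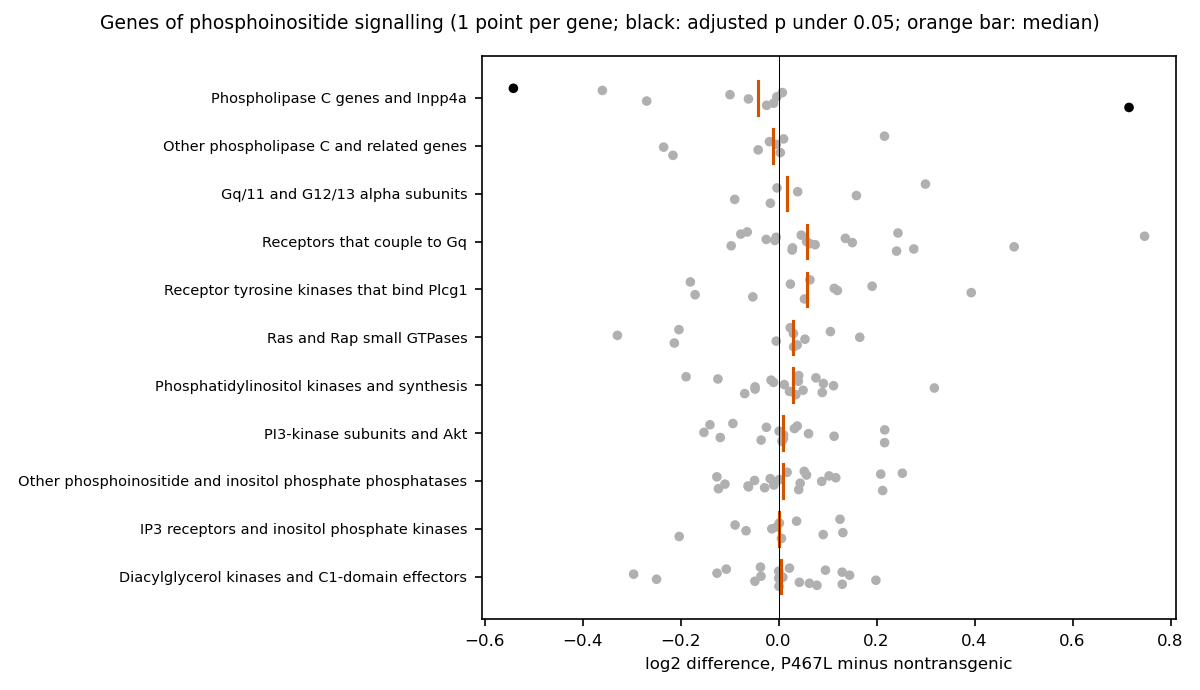
Log2 difference, P467L minus nontransgenic (horizontal axis), of every measured gene in 10 pathway lists and, in the top line, of the 10 genes described here. Each point is a gene, black where it passed the test and grey where it did not, and orange bars are medians. The only 2 black points, Plce1 and Inpp4a, are in the top line.

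Markers of 10 cell types were read beside these values, and beyond the fits given here their part in the results was not tested. Each score is the mean over each list of a gene's value minus its mean over 12 arrays. The smooth muscle score lay between -0.22 and 0.24 in P467L and between -0.11 and 0.05 in nontransgenic aorta, and differed by 0.02 (exact two-sided permutation p = 0.765). The endothelial score, with 13 of 15 markers above background, was 0.07 higher in P467L (-0.04 to 0.08, against -0.10 to 0.02 in nontransgenic aorta; exact permutation p = 0.0429, adjusted over the 10 lists 0.429). The macrophage and leukocyte score differed by 0.04 (13 of 14 markers above background, -0.20 to 0.17 in P467L and -0.18 to 0.29 in nontransgenic aorta, exact permutation p = 0.664). The adipocyte scores differed by -0.01 for white and 0.01 for brown fat (exact permutation p = 0.878 and 0.984), with medians over the lists at 0.01 and -0.05.

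The fibroblast score differed by 0.02, that of nerve and Schwann cells by 0.11, that of lymphocytes by 0.09 and that of cardiac muscle by 0.08 (exact permutation p = 0.840, 0.0896, 0.271 and 0.221). These p-values leave out the pairing by replicate number. The cardiac muscle score was higher in P467L in all 5 pairs, by 0.145 on average (0.02 to 0.25), with an exact sign-flip permutation p of 0.0625, the smallest that 5 pairs allow (adjusted over the 10 lists 0.375). The unpaired P467L replicates 6 and 7 had cardiac scores of -0.13 and -0.12, the lowest of that group. Of the lymphocyte markers 0 of 9 were above background. Over the 10 marker lists, of 8 to 15 measured genes each, 1 gene passed in limma, against 0.244% of all genes. It was Tnnt2, cardiac troponin T, which rose by 0.82 (adjusted p = 0.0019) among 9 cardiac genes and is named after its value was seen. Of these 9, 5 were above background, and their differences ran from -0.26 to 0.82 with a median of 0.07. At an unadjusted limma p under 0.05, 1 cardiac gene was lower and Tnnt2 alone was higher. The skeletal muscle score (8 of 14 markers above background) was 2.07 in P467L replicate 4, while the remaining 6 P467L scores ran from -0.33 to -0.09 and the nontransgenic scores from -0.39 to 0.20 (difference 0.31, exact permutation p = 0.742). On that array Plce1 was at 5.99, the lowest of the 12, and Inpp4a at 8.04. Without it Plce1 differed by -0.52 and Inpp4a by 0.73 (limma adjusted p = 0.0374 and 0.0412, in ranges up to 0.259 and 0.234). With the skeletal muscle score as a covariate they differed by -0.53 and 0.72 (limma adjusted p = 0.0337 and 0.0477), and with the white adipocyte score by -0.54 and 0.71 (limma adjusted p = 0.0138 and 0.0163). No other score was used as a covariate, so the endothelial, nerve and Schwann cell and cardiac scores were not tested in this way.

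The upper quartile of intensities was lower for P467L in each of the 5 pairs, though in pair 5 only at 6.375 against 6.379. The group ranges overlapped, at 6.103 to 6.375 in P467L and 6.159 to 6.379 in nontransgenic aorta. The unpaired P467L replicates 6 and 7 were at 6.32 and 6.25. With the upper quartile as a covariate Plce1 differed by -0.51 ± 0.07 and Inpp4a by 0.71 ± 0.11 (limma adjusted p = 0.00518 and 0.0176), and Plcb1 by -0.30 (limma adjusted p = 0.276).

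The genes whose deviations from the group means were most like those of Plce1, among 10649 genes above background, were Chic1, Depdc5 and Upf2, with Pearson correlations of 0.92, 0.92 and 0.90 over 12 arrays. For Inpp4a they were Rras, a small GTPase related to Ras, Cnn2, a calponin, and Lrrc27, with correlations of 0.85, 0.84 and 0.83. The 12 points share the overall intensity differences of the arrays, and the correlations, the highest of all those searched, are given as a description. In nontransgenic replicate 2, 1 of the 3 arrays least correlated with the rest, Chic1 was at 6.70 and Plce1 at 6.40. Both were the lowest of that group, and the weight of this array in the correlation was not tested. Between groups none of the 6 passed, with log2 differences from -0.08 for Lrrc27 to 0.20 for Chic1 (limma adjusted p = 0.999 for each).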

How the data were processed

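Thoracic aorta RNA of 12 mice was hybridised to the mouse exon 1.0 ST array of Affymetrix, 1 array per mouse. The authors' deposited log2 values were made with RMA in Affymetrix Power Tools, per the submitters' processing notes, which also name the mm9 build and give no tool versions. RMA subtracts background, brings the arrays to a common distribution and combines the probes of a set, which compresses differences of dim genes. The deposited values were not equal in distribution between arrays, with upper quartiles from 6.10 to 6.38. The table held 101175 rows and 0 columns of other samples. Of the rows, 22754 carried 1 gene symbol in the platform annotation, 1522 carried several and 76899 had none there.

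Each of 19687 genes was represented by its brightest row, by mean over the 12 arrays. The functions lmFit and eBayes of limma 3.58.1 under R 4.3.3 tested P467L minus nontransgenic with no covariate. The p-values were adjusted by the method of Benjamini and Hochberg over all 19687 genes, with a threshold of 0.05. The code of the fit was tried on simulated data with independent noise for each gene and array. Those data had no pairing and no shared array differences, so the trial is no support for the calls given here. Errors after ± are SE for differences and SD for levels. Precision is limited by the number of arrays. The genes described, the pathway lists and the marker lists were chosen with earlier results of these data known, so no call is independent support for them. From each pathway list every gene past the threshold was to be named, or else the 1 with the smallest p. For the 2 of the 10 genes with the smallest p, the 3 genes above background with the highest correlation of deviations from the group means were named.

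Both groups have replicates numbered 1 to 5. Deviations from the group means correlated over genes in all 5 equally numbered pairs (0.227 to 0.398), and the block fit treated the arrays as paired by number. Correlations of unequally numbered arrays are not given here, so these values alone do not show a pairing. The meaning of the numbers is not stated in the labels. Of 5 nontransgenic arrays 3 correlated best with the P467L array of their own number, while replicates 1 and 4 correlated best with P467L replicates 2 and 5. Gene names and promoter sequences came from RefSeq tables on GRCm38.p6, and 22245 of the rows with 1 symbol matched by Entrez ID. Alternatives were the replicate block, leaving out each array or the 3 arrays least correlated with the rest, quantile normalization, subtracting array medians, covariates (upper quartile, skeletal muscle score, white adipocyte score), brighter genes alone, trended or robust variances, array weights, the mean over a gene's rows, all rows, a threshold of 0.1 and an unmoderated linear model. For marker scores the alternatives were the median over the list and, chosen after seeing the data, the mean over the 5 pairs.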

Additional observations from a re-analysis of the deposited data

Results flagged for a closer look

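For 5 of 72 groups of values checked, 1 mouse lay far from the rest of its group, by a gap that was a larger share of the group's range than Dixon's 95% critical value. Chance gives about 1 such group in 20. Among the 10 genes described, Plcb3 was at 7.07 in nontransgenic replicate 1, against 6.72 to 6.81 in the other 4 nontransgenic mice. Plcg2 was at 5.38 in nontransgenic replicate 2, against 5.45 to 5.46 in the other 4. Chic1 was at 6.70 in nontransgenic replicate 2, against 7.25 to 7.45 in the other 4. The skeletal muscle score was 2.07 in P467L replicate 4, against -0.33 to -0.09 in the other 6 P467L mice. The score of nerve and Schwann cells was -0.20 in nontransgenic replicate 5, against -0.04 to -0.01 in the other 4.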

How the results depend on the processing

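Of the 10 genes described, 2 passed the threshold, and 0 passed with the replicate block, without the 3 least correlated arrays or among all rows, and 1 (Plce1) with an unmoderated linear model. Leaving out 1 array left between 0 and 2. The count over all genes was 48. It was 30 with the replicate block, which rests on 5 pairs since P467L replicates 6 and 7 have no partner, 8 without the 3 arrays, 76 under quantile normalization, 106 with the upper quartile as a covariate (71 higher and 35 lower), 25 with the skeletal muscle score, 9 among all rows and 15 in the unmoderated model. Leaving out 1 array gave 11 to 48, with 11, 18, 13 and 22 without nontransgenic replicate 1, 3, 4 and 5, and 29, 22, 24, 24 and 30 without P467L replicate 2, 4, 5, 6 and 7. The block changed no call of the other 8 genes. Settings that changed only the variances, the genes tested or the threshold left each difference as it was. Leaving out arrays could not turn the sign of Plce1 or Inpp4a, whose groups did not overlap. Plce1 and Inpp4a kept their direction in all 27 alternatives. So did Plcb1, Plcb3, Plcd1 and Plcd3, none of which passed in any. For Plcd3 the alternatives did not include its further row alone, which differed by 0.02, opposite in sign. The mean over the 2 rows gave -0.13. The differences of Plcb2, Plcb4, Plcd4 and Plcg1, all near 0 and never past the threshold, turned in sign. Plcb2 gave -0.0359 without the 3 arrays, -0.0163 with the upper quartile, -0.00964 with array weights and -0.0339 to 0.0300 with 1 array left out. Plcb4 gave 0.0312 without the 3 arrays, 0.00467 under quantile normalization, 0.0116 with medians subtracted, 0.0731 with the upper quartile, 0.00824 with array weights and -0.0715 to 0.0944 with 1 array left out. Plcd4 gave 0.00849 with the replicate block, 0.0194 under quantile normalization, 0.00505 with medians subtracted, 0.0228 with the upper quartile and -0.0462 to 0.0100 with 1 array left out. Plcg1 gave 0.0201 with the replicate block, 0.0182 under quantile normalization, 0.00531 with the skeletal muscle score and -0.0746 to 0.0187 with 1 array left out. Scores taken as medians turned for white adipocytes (0.0122) and brown adipocytes (-0.0524). With the replicate block, an alternative for the scores chosen after seeing the data, the smooth muscle score differed by -0.0368 and that of white adipocytes by 0.0620, opposite in sign to the unpaired values; with 5 pairs no score could pass. The causes were not tested. Plcb2 was not above background, which limits its value.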
